A study of Drosophila melanogaster with 2 samples.

Results

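The gap genes hb, Kr, kni, gt, tll and hkb were examined for Atf6 binding in the fly embryo. These 6 of 13968 protein-coding genes were taken by name from the Ensembl annotation, and the rule used no measured value, although earlier results of these data were known when the genes were chosen. Each gene was searched over its body and 10 kb on each side for the summit, that is the highest point, of a chromatin immunoprecipitation peak. The chromatin came from whole Drosophila melanogaster embryos of 0 to 24 h. They were of a transgenic strain, labelled Atf6-GFP, that makes an Atf6-eGFP fusion protein (eGFP is a green fluorescent protein used as a tag), and anti-GFP antibody was used for the precipitation; the labels' antibody field names Atf6, the target. There was 1 group of 2 biological replicates, with no other genotype, stage or treatment, so no comparison between groups was possible. The replicates carry different biosample labels and the same donor label. A tagged transgene stands in for the endogenous protein, and no expression was measured, so the tissue could not be checked against marker genes.

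Gap genes encode transcription factors that are switched on in broad bands of the early embryo by maternal factors such as Bicoid, Hunchback, Caudal and the terminal Torso signal. They repress each other and set the positions of the pair-rule stripes, and several of them are used again in the nervous system and gut later in embryogenesis. Atf6 is a basic leucine zipper protein of the endoplasmic reticulum membrane which, in vertebrates, is cut during stress and enters the nucleus. Collections of 0 to 24 h hold all stages of embryogenesis, so the peak lists do not tell in which stage or cells a region was bound.

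Each replicate, and the pair of them jointly, came with a long ranked list of regions and a thresholded list, short and stricter. The irreproducible discovery rate (IDR) behind the lists estimates the share of regions that do not repeat. Of the joint thresholded lists the larger one, here the main list, had 5846 peaks, and the other is called conservative. Every main-list peak had an IDR score of at least 830, which corresponds to an IDR of 0.01. Signal is the authors' score for peak height, on a scale that the sources used here do not give, and is set only against other values of the same list. The lists of replicates 1 and 2 held 4249 and 3424 peaks, and the number of reads behind them is unknown.

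Sequences are shown for the only gap gene summit in the main list, at hb, and for the best ranked region at a promoter among the other gap genes, at kni. Both were read from the RefSeq copy of the dm6 assembly on the minus strand, which is the strand of either gene. The hb sequence (chr3R:8694237-8694437) covers 100 bp on each side of the summit, and the kni sequence (chr3L:20695819-20695919) covers 50 bp on each side. Capitals mark matches of the 14 sequence words searched, on either strand.
hb summit: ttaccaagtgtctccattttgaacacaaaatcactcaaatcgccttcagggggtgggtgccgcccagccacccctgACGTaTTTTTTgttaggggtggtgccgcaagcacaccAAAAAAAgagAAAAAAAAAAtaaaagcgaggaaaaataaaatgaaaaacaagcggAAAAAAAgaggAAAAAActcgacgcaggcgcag
kni best promoter region: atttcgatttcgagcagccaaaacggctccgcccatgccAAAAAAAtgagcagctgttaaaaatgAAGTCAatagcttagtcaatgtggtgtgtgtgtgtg

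Of the 6 gap genes, hb alone had a main-list summit in its body or within 10 kb. By the same rule 66.7% of all protein-coding genes had a summit. The other 5 gap genes had none, and their nearest summits lay between 12492 bp (hkb) and 59243 bp (Kr) from a transcription start site (TSS). The 10 kb windows of the gap genes held few starts of other genes: at most 3 other protein-coding genes started in any of them, against a median of 5 over all genes. This is not rare, since 34.1% of all genes had at most 3. Of the 4763 genes with at most 3 such neighbours, 49.9% had a summit. That cut is the number at hkb, while each of the other gap genes had 0 or 1, so these genes are not matched to them. These shares are a description, and no test was made of the difference.

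The count of 1 gap gene was the same in each list. For the main-list peaks at or above the median signal this was fixed in advance. They are a part of the main list, and the hb peak (182) lies above its median of 102. Windows of 5 kb likewise could not add a gap gene. The conservative list held a summit for 62.7% of all genes, the own list of replicate 1 for 59.9%, that of replicate 2 for 52.1% and the main-list peaks at or above the median signal for 50.9%, and hb alone among the gap genes in each. Windows of 5 kb held a summit for 1 gap gene and 52.6% of all genes, and windows of 20 kb for 3 gap genes (hb, kni and hkb) and 80.8%. Windows of 10 kb around start sites gave 1 gap gene and 62.9%, and counting each summit for the gene of the nearest TSS alone gave 1 gap gene and 23.9%.

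**Figure D1:**
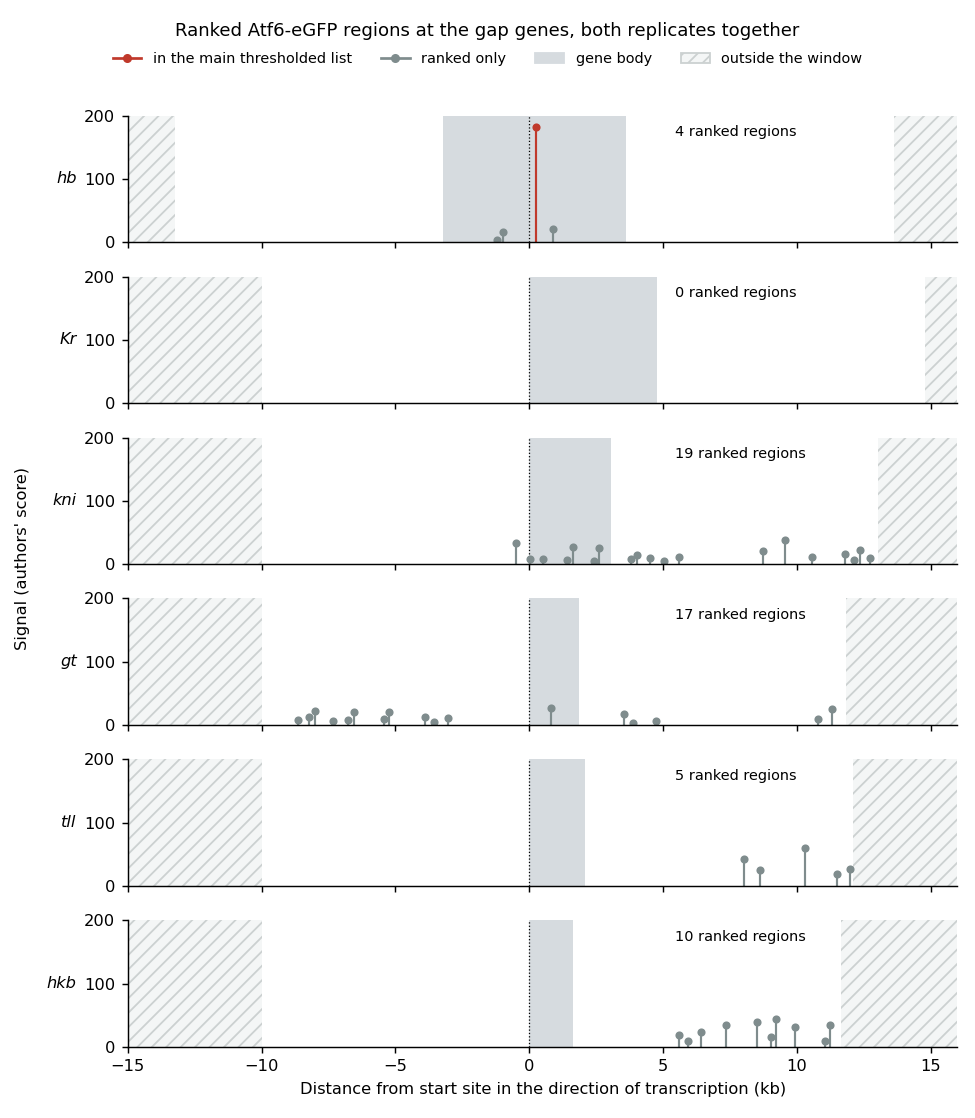
Signal (authors' score) of every ranked region of both replicates against distance in kb from a start site, in the direction of transcription, for the 6 gap genes. The proximal start site is used for hb and the distal one for kni. The single red marker, at hb with a signal of 182, is the only region in the main list, and the Kr panel holds 0 ranked regions.

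The hb peak lay in the intron just behind the proximal promoter. The gene encodes Hunchback, a zinc finger factor that is supplied maternally, activated by Bicoid in the anterior of the embryo and later used at the start of the neuroblast temporal series. The gene is annotated on the minus strand of 3R (8690980 to 8697822) with 2 start sites. The distal one, at 8697822, starts a transcript with a first intron of 3153 bp. The proximal one, at 8694600, starts a transcript whose first exon of 145 bp is followed by an intron of 283 bp (8694173 to 8694455). The peak covered 8694139 to 8694534 and thus reached into the exons on both sides of the short intron. Its summit at 8694337 lay inside that intron, 263 bp downstream of the proximal start site, and so counted as a promoter summit, that is within 500 bp of a TSS. By that rule hb was 1 of 6 gap genes with a promoter summit, and 21.6% of all protein-coding genes had one. By the other lists the count was again 1 gap gene, beside 19.3% of all genes in the conservative list, 16.7% in that of replicate 1, 14.2% in that of replicate 2 and 13.6% in the main-list peaks at or above the median signal. Promoters of 1000 bp gave 1 gap gene and 25.4% of all genes, and promoters of 250 bp gave 0 gap genes and 17.7%, since the hb summit lies outside them. Most promoter summits lay elsewhere relative to the start: the median over 2699 of them was -83 bp, and 141 (5.22%) lay farther downstream than that of hb.

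The hb peak was found in each replicate. Its signal was 80.4 in the own thresholded list of replicate 1, where it ranked 1796 of 4249, and 101.4 in that of replicate 2, where it ranked 864 of 3424. The region spanned 8694157 to 8694516 in replicate 1 and 8694132 to 8694511 in replicate 2. The summits of the 2 replicates, at 8694337 and 8694322, lay 15 bp apart. Of all main-list peaks, 2500 (42.8%) overlapped a peak in both replicates' own lists, and over these the median distance between the replicates' summits was 21 bp. A further 2144 overlapped a peak in the own list of 1 replicate and 1202 in neither. A place in the main list thus does not mean that a peak is in both replicates' own lists. The hb peak was also in the conservative list, with rank 1226 of 4884.

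In the list of both replicates the hb peak had a signal of 182, rank 1235 of 5846, and a −log10 IDR of 4.31. It was higher than 78.9% of main-list peaks. Among the 3019 genes with a promoter summit, whose median signal was 124, the signal of hb was higher than that of 69.4%. Over the wider windows, it was higher than the best signal of 55.7% of the 9316 genes with a summit, which had a median of 163. The hb peak was therefore above the middle of the list but not among its strongest.

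**Figure D2:**
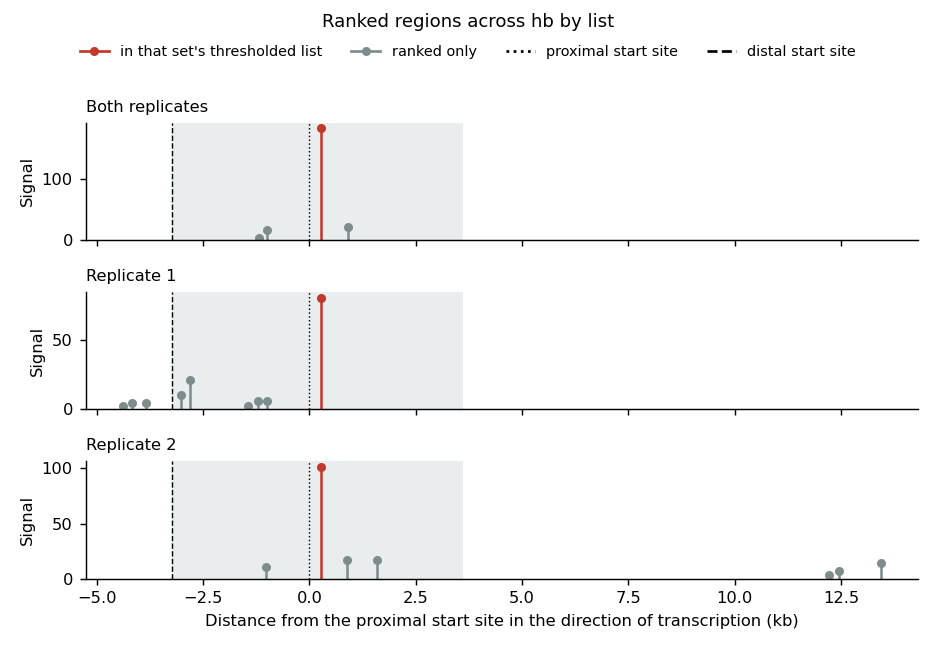
Signal (authors' score, a separate scale in each panel) of ranked regions across hb against distance in kb from the proximal start site, for both replicates together and for each replicate. Shading is the gene body; the peak 263 to 278 bp downstream of the proximal start site is the highest in each panel and the only one in a thresholded list.

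The rest of hb was weakly covered. The ranked list of both replicates held 3 further regions in the hb window, with signals of 20.7, 16.6 and 3.31, all in the gene body. The strongest of these lay in the coding exon, 898 bp downstream of the proximal start site, and overlapped a ranked region in replicate 2 (signal 16.8) and none in replicate 1. At the distal promoter no region was ranked for both replicates together. Replicate 1 had 2 regions within 500 bp of the distal start site, the stronger with a signal of 20.9, and replicate 2 had 0. No ranked region of both replicates lay upstream of the gene.

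Of the 14 words, 12 were absent within 50 bp of the hb summit on either strand. For Caudal this was TTTATG, for Capicua TGAATGAA, for Stat92E TTCNNNGAA and for GAGA factor GAGAG. For Dref it was TATCGATA, for the TATA box TATAAAA, for Tailless AAGTCA and, as a control, CATATG. The remaining 4 were words for Bicoid, Zelda and leucine zipper factors. The Bicoid word TAATCC was held by 3.11% of all main-list summits and the Zelda word CAGGTAG by 0.428%. TGACGTGG, the ATF6 core, and TGACGTCA, the cyclic AMP response element, were held by 0.0855% of summits each. ACGT, which is part of both, was present once, at 8694358 to 8694361, and 16.95% of all main-list summits held it. It lay within TGACGT, a word added after the sequence was seen, which 1.93% of summits held. The word TTTTTT, used for the A and T runs that Hunchback binds, had 8 overlapping matches at hb and was held by 24.9% of summits. G and C made up 46.5% of the bases within 50 bp of the hb summit, against a median of 35.6% over all summits. A match describes the letters in the window and does not show a site.

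The remaining trunk gap genes, Kr, kni and gt, had no main-list summit and little or nothing at their promoters. Kr encodes the zinc finger repressor Krüppel, which acts in the centre of the embryo. Its window on 2R (25216611 to 25241394) held 0 regions in the ranked list of both replicates, as for 5.33% of protein-coding genes, while ranked regions covered 26.6% of the chromosome arms. Replicate 1 alone had 3 weak regions there, the highest with a signal of 14.5, and replicate 2 had 0. The nearest main-list summit lay at the promoter of CG34038 (signal 124), and 94.8% of genes had a summit nearer to a start site than the 59243 bp of Kr. No other protein-coding gene started within that window, and Kr itself lies inside CG9380, on the other strand.

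The gene kni encodes Knirps, a member of the nuclear receptor family that represses in the posterior abdomen. It was the only one of the 5 genes without a main-list summit that had regions of the joint ranked list within 500 bp of a start site, 3 in all. The strongest (chr3L:20695671-20696066) had its summit at -491 bp from the distal start site and a signal of 32.8. Replicate 1 ranked a region there with a signal of 13.9, at 45.0% from the top of its ranked list, and replicate 2 one with a signal of 20.04, at 23.6%. The joint region had an IDR of 0.416, against the limit of 0.01. Its signal was higher than that of 33.0% of the 10545 genes with a ranked region at a promoter, whose median was 45.1. In the kni sequence printed above, the capitals are a run of A and AAGTCA, the word used for Tailless, which 4.70% of main-list summits held.

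The kni window (3L, 20682330 to 20705378) held 19 regions of the joint ranked list, 1 upstream, 6 in the gene body and 12 downstream, with a median signal of 10.6. The highest, with a signal of 37.6, lay 8724 bp downstream of the proximal start site and overlapped a ranked region in replicate 1 (24.3) and none in replicate 2. The replicates' own ranked lists had a larger share of their regions upstream. The strongest of replicate 1 lay at -9048 bp from the distal start site, with a signal of 25.1. Both replicates ranked a region that the joint list lacked, at -2611 bp in replicate 1 (11.1) and -2612 bp in replicate 2 (13.6). The nearest main-list summit was intergenic, 15280 bp upstream of kni, with a signal of 68.1 and in neither replicate's own list.

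The gene gt encodes Giant, a basic leucine zipper repressor with an anterior and a posterior band, and is the only gap gene of the same protein class as Atf6. Its window on X (2417113 to 2438967) held 17 ranked regions with a median signal of 11.2, and none lay within 500 bp of the start site in the lists of both replicates, of replicate 1 or of replicate 2. The highest (27.4) lay in the coding exon of gt, 819 bp downstream of the start. It overlapped ranked regions with signals of 19.2 in replicate 1 and 10.5 in replicate 2. This best signal was higher than that of 2.36% of the 13223 genes with a ranked region in their window, the lowest position of the 5 gap genes with such a region. The nearest main-list summit lay 41056 bp away at the promoter of boi, which encodes a Hedgehog co-receptor (signal 66.7, in the own list of replicate 2 but not of replicate 1).

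In the joint ranked list the terminal gap genes tll and hkb had regions on their downstream side only. The gene tll encodes Tailless, an orphan nuclear receptor, and hkb encodes Huckebein, a zinc finger repressor; both act at the poles downstream of the receptor Torso. In the tll window (3R, 30842315 to 30864400) all 5 ranked regions lay between 8042 and 11996 bp downstream of the start site. The highest had a signal of 60.6, with signals of 32.5 in replicate 1 and 25.3 in replicate 2. Its IDR was 0.588, although its signal was above that of 9.05% of main-list peaks. Within 500 bp of the tll start site, 2 regions were ranked in replicate 1 alone, the stronger with a signal of 8.43. Replicate 1 alone also had ranked regions farther inside the tll gene body, at 1267 and 1762 bp, with signals of 12.5 and 5.64. The main-list summit nearest to the tll start site lay 34819 bp from it, at the promoter of the adaptor gene cindr (signal 223, in both replicates' own lists).

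In the hkb window (3R, 4335015 to 4356646) the 10 ranked regions all lay downstream of the gene as well. The strongest (44.0) lay at the promoter of Skp2 and the second (39.4) at that of CG1103, 2 neighbours that start within the window. The Skp2 region had a signal of 27.3 in replicate 1 and 17.1 in replicate 2, and the CG1103 region 29.4 in replicate 1 and 19.6 in replicate 2. No region of any of these lists lay within 500 bp of the hkb start site. The nearest main-list summit was at the promoter of CG9776, 12492 bp from hkb (signal 89.4, in the own list of replicate 1 but not of replicate 2).

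None of the 5 genes had a region past the threshold. The highest IDR score in their windows was 423 at tll, 380 at hkb, 363 at kni and 190 at gt, against the 830 that the main list required, and Kr had no region to score. For 4 of the 6 gap genes (Kr, gt, tll and hkb) no region at all was ranked within 500 bp of a start site in the list of both replicates, as for 24.5% of all protein-coding genes. Per 10 kb of window there were 1.49 ranked regions for hb, 2.26 for tll, 4.62 for hkb, 7.78 for gt and 8.24 for kni. All lay below the median of 12.1 over all genes, whose quartiles were 7.82 and 14.5, with kni inside them. By share of the window covered, kni (29.4%) and gt (27.8%) were slightly above the 26.6% of the chromosome arms. The shares at hkb (16.3%), tll (8.48%) and hb (5.18%) were below it. Of the 54 ranked regions in the 6 windows outside the main list, 34 (63.0%) were intergenic, against 16.9% of the 100046 such regions in all. Intergenic sequence makes up more of a window where genes are few, and how far that sets this share was not tested.

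**Figure D3:**
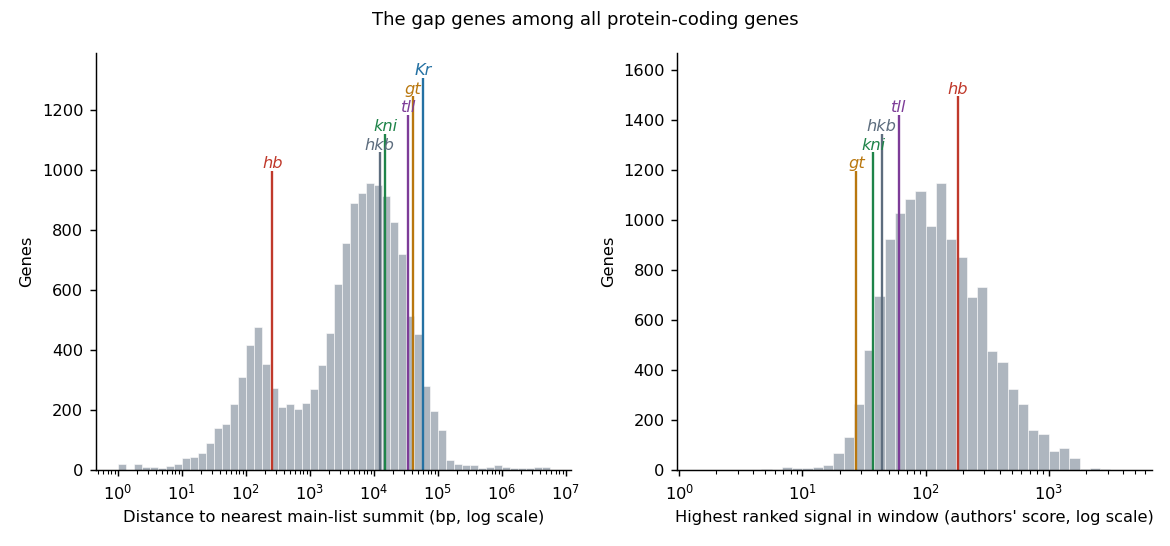
Number of protein-coding genes (grey bars) by distance in bp from a start site to the nearest main-list summit (left, log axis) and by the highest ranked signal in the window (right, authors' score, log axis), with the gap genes as coloured lines. On the left hb lies at 263 bp and the other 5 genes at 12492 bp or more; on the right hb lies at 182 and the 4 others with a region at 60.6 or less, while Kr has no value.

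The neighbourhoods differed in their number of peaks. In the gene body or within 50 kb of it there were 15 main-list summits for hb and 11 for tll, then 5 for hkb, 3 for kni, 1 for gt and 0 for Kr, against a median of 6 over all protein-coding genes. Thus hb and tll lay above that median and the other 4 below it. Around hb the strongest of these lay at the promoters of SLIRP2 (signal 892, 43648 bp from the proximal start site of hb) and CG8036 (590), both above the hb peak itself. Around tll the 11 lay in or near cindr, wts, the Hippo pathway kinase gene, and Sap-r. By distance to the tll start site the nearest lay at the cindr promoter (34819 bp), followed by 1 at Sap-r (35585 bp). The strongest around hkb was an intergenic peak with a signal of 414, at -48689 bp.

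Genes that act with the gap genes were counted in 7 lists. Of 50 genes, 16 (32%) had a promoter summit, against 21.6% of all protein-coding genes. In the conservative list 10 of the 50 (20%) had one, against 19.3% of all genes. In the own list of replicate 1 these were 9 (18%), against 16.7%, and in that of replicate 2 they were 12 (24%), against 14.2%. In windows of 10 kb 36 (72%) had a summit, against 66.7% of all genes. The 16 were spread unevenly. Of the maternal regulators of the gap genes 8 of 11 had a promoter summit, and of the corepressors 3 of 6. The neuroblast temporal series had 2 of 5, the pair-rule genes 2 of 9 and the head gap genes 1 of 3. In the conservative list the maternal regulators had 7, the corepressors 2, the head gap genes 1 and the neuroblast series and pair-rule genes 0 each. In the own list of replicate 1 the maternal regulators had 7, the corepressors 2 and the other 3 groups 0 each. In that of replicate 2 the maternal regulators had 5, the corepressors 3, the pair-rule genes 2, the neuroblast series 1 and the head gap genes 0. The terminal pathway, whose signal leads to tll and hkb, had 0 of 12 at a promoter in the main list. It also had 0 in the conservative list and in that of replicate 1. In the own list of replicate 2 it had 1 of 12 (8.33%), cic, against 14.2% of all genes. A main-list summit in the gene body or within 10 kb was found for 8 of the 12 (66.7%), against 66.7% of all genes. The relatives of kni, tll and Kr (knrl, eg, dsf and Kr-h1) had 0 of 4 at a promoter and 3 of 4 in the wider windows. The lists are small and were drawn up with earlier results of these data known, so the counts are a description.

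Among the maternal regulators, Trl, which encodes GAGA factor, had the highest promoter signal at 423, with 242 in replicate 1 and 179 in replicate 2. The anterior morphogen gene bcd, whose product activates hb, had 150.3 (89.5 in replicate 1 and 57.6 in replicate 2), with the summit 96 bp upstream of its start site. Stat92E, the transcription factor of JAK/STAT signalling, had 149.6, with a peak in the own list of replicate 1 (107.0) and none in that of replicate 2. The other 5 were nanos, cad, pum, stau and exu, at 114 to 68.2, and the summit counted for nanos lay nearest to the start of CG11779. The gene zld, which encodes the early activator Zelda, had no summit in its window.

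Of the corepressor genes, gro, whose product Groucho is recruited by Huckebein, had a promoter signal of 453 (253 in replicate 1 and 199.6 in replicate 2), above that of hb. The signal at ebi was 225 (117.6 in replicate 1 and 97.0 in replicate 2), at a summit nearest to the start of AP-2alpha. Gug, which encodes Atrophin, a partner of Tailless, had 65.7 and a peak in the own list of replicate 2 (43.4) and not of replicate 1. CtBP, the corepressor of Krüppel, Knirps and Giant, had no promoter summit; its best ranked signal there was 46.3.

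The other promoter summits were weaker than that of hb. They were at the head gap gene btd (88.8, in neither replicate's own list), at the POU gene nub (68.5, in replicate 2 with 45.8) and at grh (62.8, in neither) of the neuroblast series, and at the pair-rule genes opa (82.1, in replicate 2 with 58.3) and hry, the annotation's name for hairy (67.7, in replicate 2 with 51.2). Of the 16 promoter peaks of the lists, 6 overlapped a peak in both replicates' own lists, 7 in one and 3 in neither. In the terminal pathway the best ranked promoter signals had a median of 48.4 over 11 genes, close to the 45.1 over all genes. Ras85D, named after its value was seen, had a ranked promoter region with a signal of 151 and an IDR score of 1000 that was absent from the main list. No such case occurred among the gap genes.

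**Figure D4:**
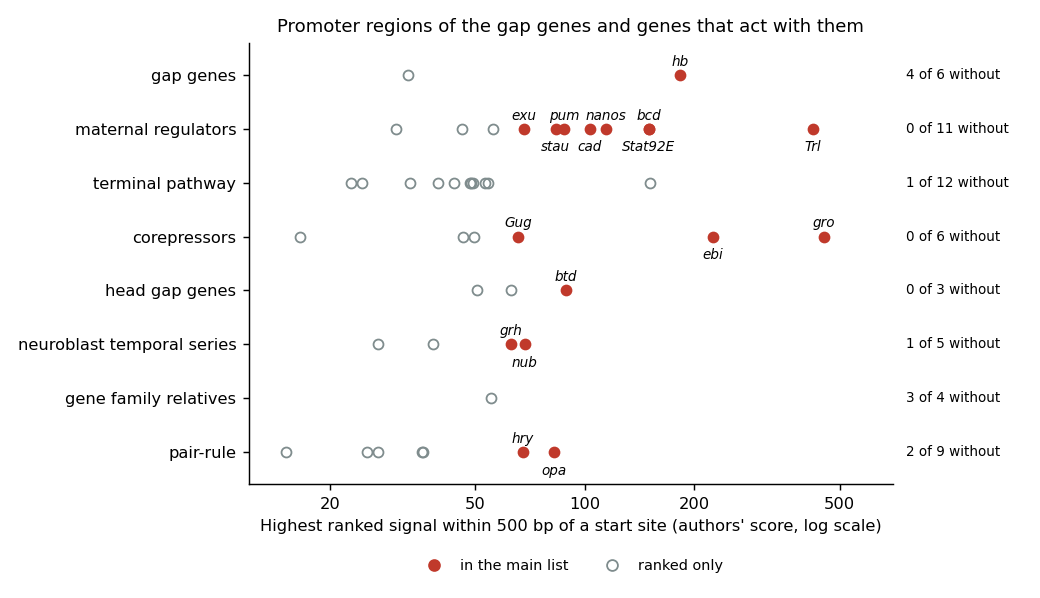
Highest signal within 500 bp of a start site (authors' score, log axis) for the gap genes and 7 lists of genes that act with them, 1 circle per gene; filled circles are main-list peaks, open circles are ranked regions outside it, and the number at the right counts genes with neither. In the gap gene row hb (182) is filled and kni (32.8) is open, and the terminal pathway row has 0 filled circles.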

How the data were processed

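Peak lists on dm6 were deposited by the authors. Text files deposited with them name alignments and a control as their source. Neither the aligner nor the caller is given in the sources used here. The control was not analysed. The deposited values are scores set by the authors (signal and IDR score) and, in the ranked lists, the authors' −log10 of the IDR, of which 10 to the minus power gave the IDR. Depth is unknown.

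Genes came from Ensembl release 115 (BDGP6 version 54), and sequences from RefSeq's copy of dm6; every arm's last region ended within the arm. Summits were assigned to windows of 10 kb around gene bodies and to promoters of 500 bp. Location classes took promoter first. Replicate overlap needed 1 bp. Counting of windows and words was tested on simulated data. Listed gene names were looked up as symbols, and 4 as RefSeq synonyms; nanos is listed by its annotated symbol. Named genes are the gap genes, the gene nearest to each summit and the 3 highest of each list; further genes were named after their values were seen. With 1 group, no p-value was computed. The members and lists were chosen with earlier results of these data known. Python 3.11.15, numpy 2.4.6, pandas 2.3.3 and matplotlib 3.10.9 were used.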

Additional observations from a re-analysis of the deposited data

How the results depend on the processing

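Of 32 alternatives, 25 gave the reported count or value, or a count within 1.5 times of it. Leaving out a replicate, by using the other's own list, left 1 gap gene with a summit, 1 summit and 1 promoter summit in either case. So did the conservative list and the main-list peaks at or above the median signal. These last peaks, and windows of 5 kb, are parts of the main setting and could not add a gap gene. The windows mattered: with 20 kb on each side 3 gap genes (hb, kni and hkb) had a summit, 5 summits in all, while 80.8% of all genes had one. With promoters of 250 bp, 0 gap genes had a promoter summit, since that of hb lies 263 bp from the start, and 17.7% of genes had one. With the promoter class left out, 0 summits were promoter summits and that of hb was intronic. Of the 50 listed genes 10 (20%) had a promoter summit in the conservative list, against 19.3% of all genes. With a replicate left out these were 9 to 12 (18% and 24%), against 16.7% and 14.2% of all genes. A summit within 10 kb was found for 36 (72%), against 66.7%. No paired analysis was possible because there is 1 group and no test was made. The reads behind the lists are unknown, so what depth limits could not be given.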
